A study of Mus musculus with 4 samples.

Results

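Serpins are a family of protease inhibitors, and their genes were followed here in mouse skin epithelial stem cells before and after a long series of cultures. The members were all non-control probes whose gene name on the array began with Serpin, which gave 75 probes on 84 spots for 59 genes, out of 39429 probes on 43020 non-control spots per array. After a filter on dim probes, 23 of the 59 Serpin genes were tested, among 17374 genes in all. The family divides into clades named by letter, and the array carried 22 genes of clade A, 26 of clade B, 3 of clade E, 2 each of clades F and I, and 1 each of clades C, D, G and H.

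An inhibitory serpin presents a loop that a protease cuts as if it were a substrate. The cut makes the serpin change shape and trap the protease in a covalent complex, so each molecule is spent in 1 reaction. Clade A members are mostly secreted, many of them by the liver, while clade B members lack a classical signal peptide and act largely inside cells, several of them in stratified epithelia such as the epidermis. Some members inhibit no protease and work as hormone carriers or chaperones.

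Both groups were adult C3H/HeN mouse primary skin epithelial cells sorted as positive for CD49f (the integrin alpha 6 chain) and for CD34, a combination used to isolate hair follicle bulge stem cells. The group called 0p was sorted from the primary cells at the start. The group called 15p was sorted after the 15th culture of a series, each of 10 days with the growth factor Wnt-3a on dishes (60 mm across) that carried a collagen I layer. Wnt-3a is the labelled treatment of both groups, and the labels do not give whether the 0p cells had been kept with it before their RNA was purified. Pooling of animals is not given there either. The question was how the transcriptome of the cells at the end of the series compared with that at its start. Every array carried both RNAs, 1 in Cy5 and 1 in Cy3, and 2 biological replicates were each run on an array pair with exchanged dyes. Arrays are called 15p-Cy5 or 15p-Cy3 after the dye of their 15p RNA. The 4 arrays therefore gave 2 replicate means (n = 2). Each p-value rests on the spread between those means, which limma draws toward a value pooled over all genes (8.89 prior and 1 residual degrees of freedom). The spread between the means may be technical because no label names separate animals.

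Between 55.5% and 68.3% of non-control spots were well above background in a channel, a flag set by the scanner's software. The highest shares in both dyes were on the 15p-Cy3 array of replicate 2. Of 10 markers of basal epidermal and follicle cells, 9 were tested, and the exception was Cd34, whose 2 probes were well above background on 0 arrays in 15p RNA and on 0 and 1 arrays in 0p RNA. None of the 9 passed the test (adjusted p of 0.749 at the lowest, limma with Benjamini-Hochberg adjustment). Cdh3, Krt14 and Krt15 had an unadjusted p under 0.05, or 33.3% against 6.30% of all genes. Their mean log2 ratios (15p over 0p) were 0.20, 0.19 and 0.17. Cdh3 and Krt15 were positive on both 15p-Cy5 arrays and negative on both 15p-Cy3 arrays, and Krt14 was negative on the 15p-Cy3 array of replicate 2. Of the 9 means 6 were positive and 3 negative, and that of Krt5 was 0.00042. Markers of fibroblasts (2 of 8 tested), endothelium (4 of 8), immune cells (5 of 9), mast cells (1 of 6) and melanocytes (4 of 7) had mean log2 ratios from -0.13 to 0.088, and none of them passed. With RNA from bulk samples, fewer cells of a type and less RNA per cell cannot be told apart.

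No Serpin gene was called higher or lower in 15p cells (0 of 23; limma on the replicate means with Benjamini-Hochberg adjustment over all genes at 0.05, lowest adjusted p = 0.749). The share called among all genes tested was 0%. Mean log2 ratios of the Serpin genes ran from -0.12 for Serpinb2 to 0.18 for Serpina1c, within a range of -0.59 to 0.47 over all genes. Their median was 0.025, against 0.0025 over all genes, and 15 of the 23 were positive, or 65.2%, against 51.4% of all genes. Without a threshold for multiple tests, 2 Serpin genes, Serpina1c and Serpina3h, had a p under 0.05, both with positive ratios, and 0 had a negative one. Among all genes tested, 2.92% reached that p with a positive ratio and 3.38% with a negative one.

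The 95% interval of all 23 Serpin genes lay within a 1.5-fold difference in either direction, as it did for 17316 of the 17374 genes. Its median half-width was 0.12 for the Serpin genes and 0.12 over all genes. The bound farthest from 0 belonged to Serpina1c, at a log2 ratio of 0.31, or 1.24-fold. These intervals use limma's moderated variance, with 8.89 prior and 1 residual degrees of freedom, and the ratios of dim probes are compressed by the offset added to each signal. With plain background subtraction and no offset, the mean for Serpina1c was 0.28, again without a call. From the scanner's own processed signals a Serpin mean shifted by up to 0.27, more than the median half-width above. No interval is given for these alternatives, so the 1.5-fold bound holds only for the processing used here. Deviations of the 2 arrays of a replicate number correlated at -0.26 across genes, which narrows the spread between replicate means and so the intervals.

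**Figure D1:**
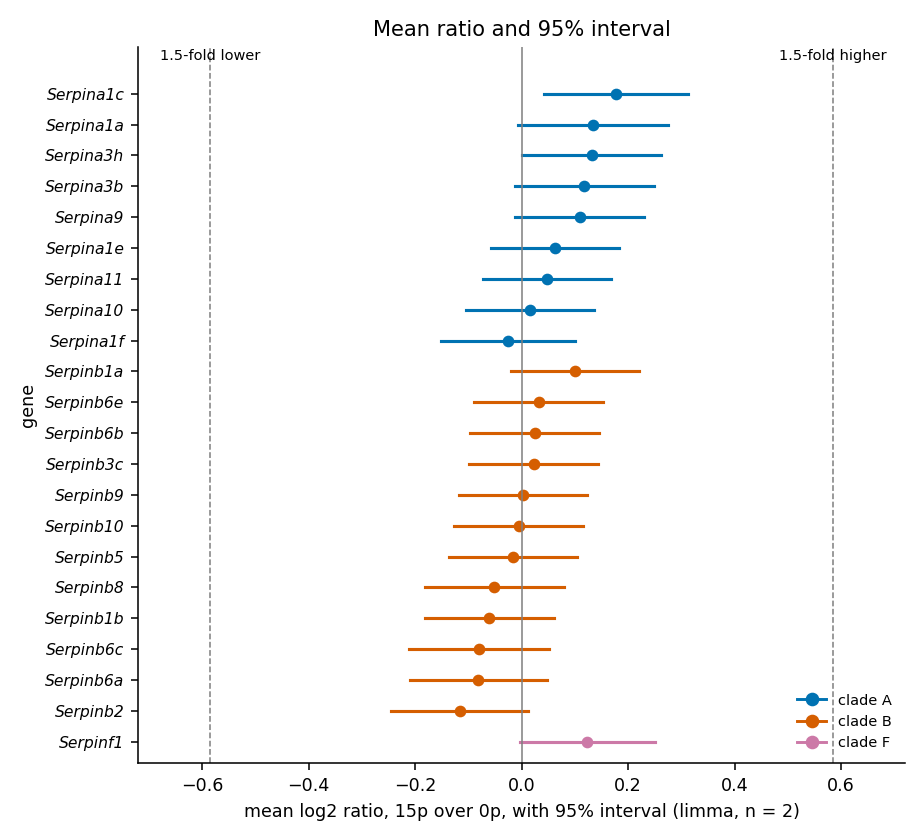
Mean log2 ratio of 15p over 0p (horizontal axis) for 22 tested Serpin genes (vertical axis), as points with the 95% interval from limma over 2 replicates as lines, coloured by clade; dashed lines mark 1.5-fold differences. All 22 intervals lie between the dashed lines, with the farthest bound at 0.31 for Serpina1c.

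Whether a Serpin gene could be tested depended on its signal. The test needed a probe flagged well above background in 15p RNA on every array, or in 0p RNA on every array. This was met by 23 of the 59 Serpin genes and by 17374 of all 31883 genes with a ratio on every array. Another 15 Serpin genes were well above background on some arrays only, and 21 on none. In clade A, 9 of 22 genes were tested, 5 were seen on some arrays only and 8 on none, and in clade B these counts were 12, 5 and 9 of 26. Of the remaining 11 genes 2 were tested. The number of Serpin genes well above background in 15p RNA was 27 and 24 on the 15p-Cy5 and 15p-Cy3 arrays of replicate 1, and 24 and 31 on those of replicate 2. In 0p RNA the numbers in the same order were 26, 26, 25 and 33. The RNAs of an array thus differed by at most 2 genes, while the 15p-Cy3 array of replicate 2 stood above the other arrays in both RNAs. That array alone accounted for 7 of the genes seen on some arrays only, against 3, 1 and 0 genes seen only on the 15p-Cy5 array of replicate 2, the 15p-Cy5 array of replicate 1 and the 15p-Cy3 array of replicate 1.

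**Figure D2:**
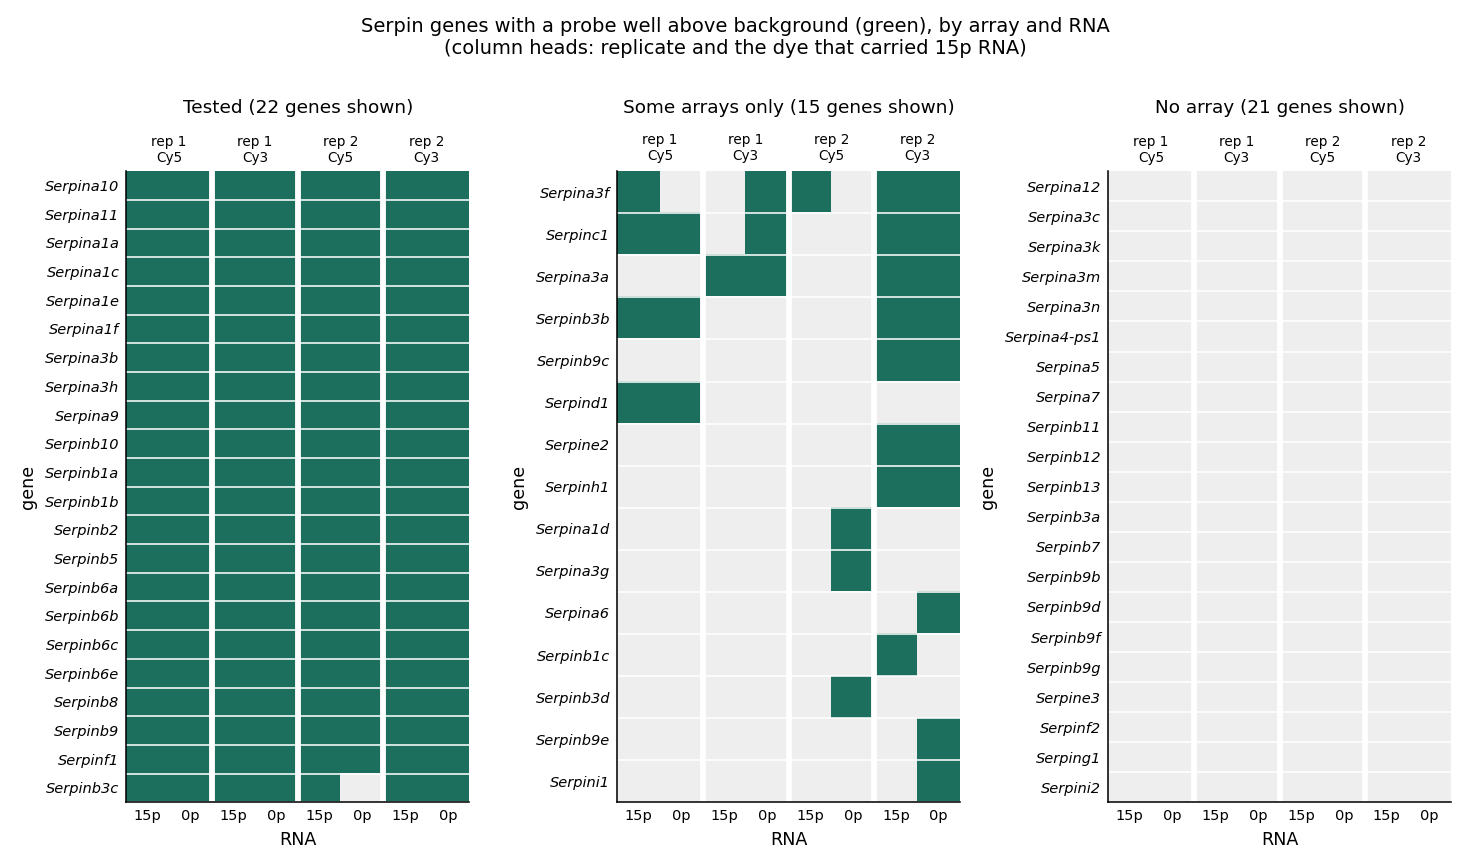
Each row is a Serpin gene and each column an RNA on an array (column heads give the replicate and the dye that carried 15p RNA); green marks a probe well above background. Tested genes, 22 of them shown, are at left, 15 genes seen on some arrays only are in the middle, and 21 seen on no array are at right.

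Clade A held the 3 highest mean ratios of the family, those of Serpina1c, Serpina1a and Serpina3h. Of its 9 tested genes 8 had a positive mean log2 ratio, with a median of 0.11, and the clade's range was -0.026 to 0.18. These genes mostly encode secreted inhibitors. Serpina1c was dim, with a mean spot signal of 132.5, 84.9, 136.2 and 125.7 in 15p RNA on the 4 arrays (15p-Cy5 then 15p-Cy3 of replicate 1, and replicate 2 likewise, an order kept throughout), where the median of negative control spots lay between 47.5 and 75.2. None of 7 listed transcripts of hepatocytes and plasma was tested, and 5 of them were well above background on some arrays only. The difference between clades was not tested.

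Serpina1c, 1 of a tandem group of mouse genes for alpha-1-antitrypsin, the main plasma inhibitor of neutrophil elastase, had log2 ratios of 0.24, -0.061, 0.33 and 0.20. It was higher in 15p RNA on 3 of the 4 arrays. Its mean was 0.18 ± 0.12 (SD, n = 2), with a 95% interval from 0.042 to 0.31, and it did not pass (adjusted p = 0.749 with limma). Serpina1a, of the same group, gave 0.13, -0.070, 0.35 and 0.13, also higher on all but the 15p-Cy3 array of replicate 1. Its mean was 0.13 ± 0.15 (SD, n = 2; limma adjusted p = 0.749). Both means moved with the source of the signal: from the scanner's own processed signals they were 0.37 and 0.35, in both cases without a call.

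The measurements of these genes overlap in sequence. The probes are 60 bases long, and those of Serpina1a and Serpina1c share a run of 47 bases, while 29 of those bases also occur in the tested probe of Serpina1e. A stretch of 30 bases from each is shown to make the overlap visible; capitals mark the shared 29 bases. The stretches start at base 7, 16 and 17 of probes on the minus strand of chromosome 12 in mouse build mm9, at chr12:105091819-105091878, chr12:105133165-105133224 and chr12:105185172-105185231.
Serpina1a: GTCATCCTTCCTTCTGAATTGGGTTCCTTc
Serpina1c: GTCATCCTTCCTTCTGAATTGGGTTCCTTc
Serpina1e: GTCATCCTTCCTTCTGAATTGGGTTCCTTt
The stretches of Serpina1a and Serpina1c are identical in all 30 bases. The Serpina1c probe is listed under 4 RefSeq transcripts, which include those given for the Serpina1a and Serpina1e probes. It is therefore not annotated to Serpina1c alone. A second Serpina1a probe, at chr12:105091979-105092038 on the same strand, lacks the run and begins with the bases below, printed without capitals.
Serpina1a, second probe: aacagaagctgcagcagttacagtcttaca
It was well above background on 1 array in 15p RNA and on 2 in 0p RNA, so the ratio of Serpina1a rests on the probe that holds the shared run. Serpina1e had a mean log2 ratio of 0.062, and its other tested probe gave 0.0065. Serpina1f, known from the epididymis, had the clade's lowest ratio, at -0.026. From the scanner's own processed signals the mean of Serpina1f was -0.29, without a call, and without replicate 1 it was 0.027.

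Among the antichymotrypsin-like genes, Serpina3h had log2 ratios of 0.11, 0.010, 0.31 and 0.097, so it was higher in 15p RNA on all 4 arrays. Its mean was 0.13 ± 0.10 (SD, n = 2), and it did not pass (adjusted p = 0.749 with limma). A second probe, at chr12:105492556-105492615 (mm9, plus strand), gave a mean of 0.091. That probe is also listed under the transcripts of the Serpina3f probe, so it is not annotated to Serpina3h alone. Serpina3b showed the same signs, with 0.058, 0.034, 0.24 and 0.14 and a mean of 0.12 ± 0.10. Serpina9, which germinal centre B cells are known to express, gave 0.13, 0.023, 0.27 and 0.011, with a mean of 0.11 ± 0.043. Neither passed (adjusted p = 0.749 for each with limma). In each of these 3 genes the value on the 15p-Cy5 array of replicate 2 was the highest. The last members of the clade to be tested were Serpina10, an inhibitor of coagulation factor Xa with protein Z as cofactor, at 0.015, and Serpina11, at 0.047. From the scanner's own processed signals the mean of Serpina10 was -0.076, without a call.

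Positive ratios on all 4 arrays were found for 4 of the 23 Serpin genes, namely Serpina3b, Serpina3h, Serpina9 and Serpinf1. Among all genes tested this share was 3.67%. No Serpin gene was negative on all 4 arrays, against 3.11% of all genes. Those 4 genes had their highest ratio on the same array, between 0.24 and 0.32, and the lowest of their ratios elsewhere was between 0.0093 and 0.034.

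Clade B held the inhibitors that keratinocytes are best known for, and their ratios lay close to 0. Of the 12 tested genes 5 had a positive mean log2 ratio, the median was -0.011 and the range -0.12 to 0.10. None passed, and none had an unadjusted p under 0.05.

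Serpinb5 encodes maspin, a clade B protein of epithelial cells that is known as a tumour suppressor. Its normalised log2 signals were 14.58, 14.67, 14.93 and 15.17 in 15p RNA and 14.60, 14.68, 15.07 and 15.07 in 0p RNA. The ratios were -0.013, -0.0089, -0.14 and 0.10, so the RNAs were alike on the replicate 1 arrays and the signs were opposite on those of replicate 2. The mean was -0.016 ± 0.0075 (SD, n = 2), with a 95% interval from -0.14 to 0.10 (limma, adjusted p = 0.960), and its sign turned when arrays were centred on the median. Serpinb2, the plasminogen activator inhibitor type 2 of keratinocytes and macrophages, had ratios of 0.23, -0.34, -0.22 and -0.14. It was lower in 15p RNA on 3 arrays and higher on the 15p-Cy5 array of replicate 1. Its mean was the lowest in the family, at -0.12 ± 0.089 (SD, n = 2; limma adjusted p = 0.749). With 1 array left out the fitted log2 ratio of Serpinb2 was -0.0037 without the 15p-Cy5 array of replicate 2, -0.066 without the 15p-Cy3 array of replicate 1, -0.17 without the 15p-Cy3 array of replicate 2 and -0.23 without the 15p-Cy5 array of replicate 1.

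Serpinb1a, an inhibitor of neutrophil elastase and cathepsin G, had log2 ratios of 0.088, 0.15, -0.068 and 0.23. It was higher in 15p RNA on 3 of 4 arrays, with a mean of 0.10 ± 0.025 (SD, n = 2; limma adjusted p = 0.752). Its paralog Serpinb1b had a mean of -0.060, with a sign that turned in 2 fits that left out 1 array. Serpinb9, the inhibitor that protects cells from granzyme B, gave 0.20, -0.17, 0.097 and -0.12, with a mean of 0.0027 ± 0.017 whose sign turned when arrays were scaled to a common spread. Its ratio was positive on both 15p-Cy5 arrays and negative on both 15p-Cy3 arrays.

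Serpinb6a, a broad inhibitor of trypsin-like and chymotrypsin-like proteases that also serves inner ear hair cells, had log2 ratios of -0.010, -0.014, -0.33 and 0.032. On 3 arrays the RNAs were nearly alike, and the 15p-Cy5 array of replicate 2 stood below the others. The mean was -0.081 ± 0.097 (SD, n = 2; limma adjusted p = 0.804). Its relatives Serpinb6b, Serpinb6c and Serpinb6e had means of 0.025, -0.081 and 0.032.

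Serpinb6a and Serpinb6c, with equal mean ratios, are measured by probes that share sequence, shown for that reason. A run of 26 bases is common to the Serpinb6a probe and to both Serpinb6c probes, and its first 18 bases also occur in the Serpinb6e probe; capitals mark what each stretch shares with that of Serpinb6a. The probes lie on the minus strand at chr13:34009796-34009855, chr13:33971703-33971762 and chr13:33924218-33924277 in mm9, and the stretches start at base 1, 19 and 6.
Serpinb6a: AAGTGACCTTATCCATAAGTGCAATGgcaa
Serpinb6c: AAGTGACCTTATCCATAAGTGCAATGacag
Serpinb6e: AAGTGACCTTATCCATAAatataatgacag
On the 15p-Cy5 array of replicate 2 the probes of Serpinb6a and Serpinb6c had log2 ratios of -0.33 and -0.27, which is a description without a test. The second Serpinb6c probe, which holds the same 26 bases, had -0.11 on that array and a mean of -0.025. The probe of Serpinb6e, with the shorter run, had -0.0065 there. Serpinb1b, outside this group, had -0.32 on the same array, where the SD of the ratios over all genes was 0.29.

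Serpinb8, a clade B inhibitor of the proprotein convertase furin, had the widest split between the dyes in the family. Its log2 ratios were 0.46, -0.42, 0.27 and -0.51, so 15p RNA gave the brighter signal whenever it was in Cy5 and the dimmer one whenever it was in Cy3. The mean was -0.051 ± 0.10 (SD, n = 2; limma adjusted p = 0.862), and the mean ratio with 15p in Cy5 exceeded that with 15p in Cy3 by 0.83. This difference was larger than in 99.4% of all genes. The probe, on the plus strand at chr1:109504865-109504924 in mm9, contains an alternation of T and G, marked in capitals in the 30 bases from base 27.
Serpinb8: gtgtaTGTGTGTGTGTGTGcctctgtgtgt
The run is 14 bases long. A repeat of T and G of 10 or more bases, read on the probe strand in either phase, was present in the probes of 147 genes, or 0.846% of those tested, and their median difference between dye orientations was 0.76 (quartiles 0.59 and 0.85). Probes with a repeat of C and A of that length, in 68 genes, had a median difference of 0.13, and the 17159 probes with neither had 0.0099. Serpinb8 was the only Serpin gene with either repeat in its tested probe. A link between the repeat and the dye split of Serpinb8 was not tested. By comparison, the first 30 bases of the Serpinb5 probe, at chr1:108778585-108778644 on the plus strand, hold no such run.
Serpinb5: ccaagtctcagggaacttgtctgtagtcgc
The difference between dye orientations for Serpinb5 was -0.12. Among the Serpin genes without the repeat it ran from -0.18 for Serpinb1a to 0.29 for Serpinb9. The mean over orientations is the value given for each gene above.

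The same split of signs, positive on both 15p-Cy5 arrays and negative on both 15p-Cy3 arrays, was seen for 3 Serpin genes, Serpinb3c, Serpinb8 and Serpinb9. It was seen for 18.1% of all genes tested. The reverse split was seen for 0 Serpin genes and for 14.1% of all genes. Among the 23 Serpin genes the median difference between orientations was 0.082, against 0.013 over all genes.

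**Figure D3:**
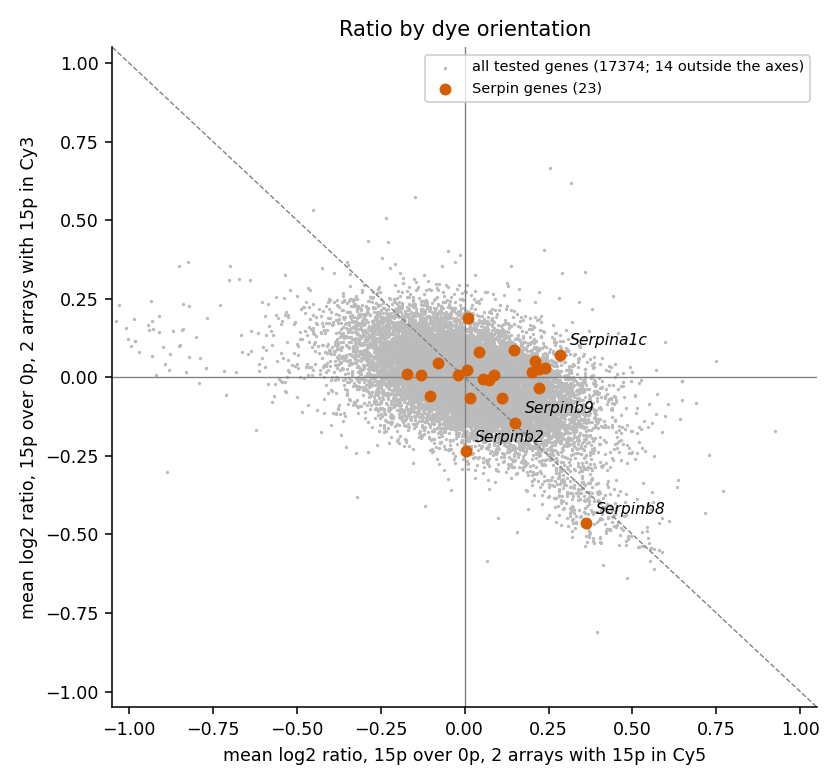
Mean log2 ratio of 15p over 0p on the 2 15p-Cy5 arrays (horizontal axis) against that on the 2 15p-Cy3 arrays (vertical axis), for all tested genes (grey) and the 23 Serpin genes (orange); the dashed line marks ratios of equal size and opposite sign. Serpinb8 lies near the dashed line at the lower right, with a difference of 0.83 between the axes, and the other Serpin genes lie nearer the centre.

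Serpinb3c belongs to the mouse genes related to the human squamous cell carcinoma antigens, and its probe was spotted 10 times on every array. This gave a view of the error within an array. After irregular spots were left out, 8, 9, 10 and 8 spots gave mean log2 ratios of 0.073, -0.085, 0.15 and -0.048. The SD between spots was 0.12, 0.098, 0.15 and 0.078, larger than the median of 0.060 to 0.073 for the 399 probes spotted as often. Single spots of Serpinb3c thus ranged across 0 on each array, for example from -0.12 to 0.33 on the 15p-Cy5 array of replicate 2. The probe was dim, and in 0p RNA only 4 of its 10 spots were well above background on that array. The mean over replicates was 0.023 ± 0.040 (SD, n = 2; limma adjusted p = 0.940). Serpinb10, known from haematopoietic cells, completed the tested members of the clade at -0.0056, with a sign that turned when arrays were centred on the median.

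**Figure D4:**
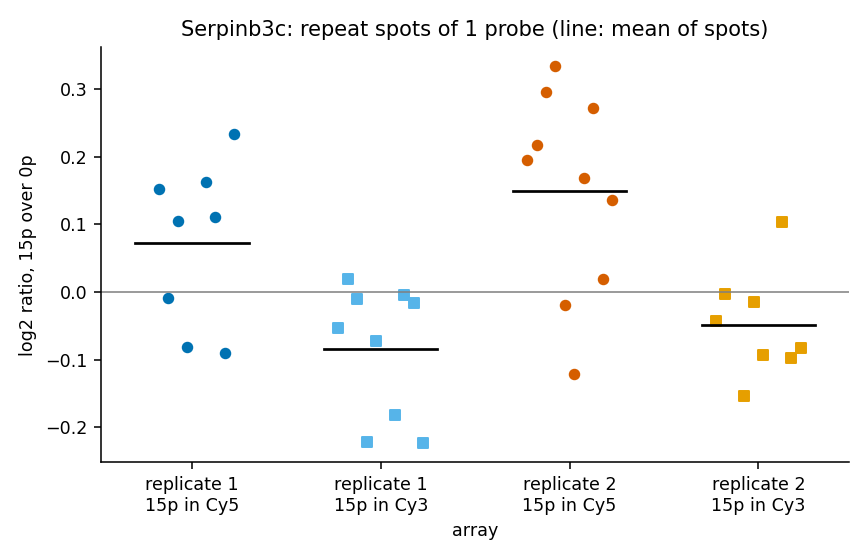
Log2 ratio of 15p over 0p (vertical axis) at each usable spot of the Serpinb3c probe on each array (horizontal axis); black lines are the means of the spots. The means are positive with 15p in Cy5 (0.073 and 0.15) and negative with 15p in Cy3 (-0.085 and -0.048), and the spots of every array fall on both sides of 0.

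Among the smaller clades, Serpinf1 encodes pigment epithelium-derived factor, a secreted member that limits vessel growth and inhibits no protease. It gave 0.12, 0.0093, 0.32 and 0.045, higher in 15p RNA on all 4 arrays, with a mean of 0.12 ± 0.084 (limma adjusted p = 0.749). A second Serpinf1 probe was well above background on 1 array only.

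The 15p-Cy5 array of replicate 2 carried the largest ratio, in either direction, of 14 of the 23 Serpin genes. The share over all genes was 56.8%, and the SD of the ratios over all genes was 0.29 on that array and 0.13 to 0.14 on the others. Serpin ratios on it had a median size of 0.22, against 0.061 to 0.099 on the other arrays. In 17 of the 23 Serpin genes both replicates had the same sign, or 73.9%, against 57.0% of all genes.

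A fit of 3 arrays with a dye term gave calls when 1 particular array was absent. Without the 15p-Cy5 array of replicate 1, 7 Serpin genes were called, 5 of them higher, among them Serpina1a, Serpina1c, Serpina3h and Serpinf1 (log2 ratios of 0.17 to 0.20), and Serpinb2 and Serpinb6c lower (-0.23 and -0.17), with adjusted p from 0.00425 to 0.0489 in limma. The same fit called 3120 of all 17374 genes, and limma's estimate of the prior degrees of freedom was infinite there, so that every gene had the same spread. The remaining 15p-Cy5 array is alone in its dye orientation there and adds nothing to the estimate of that spread. With any 1 of the other 3 arrays left out, 0 Serpin genes were called.

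**Figure D5:**
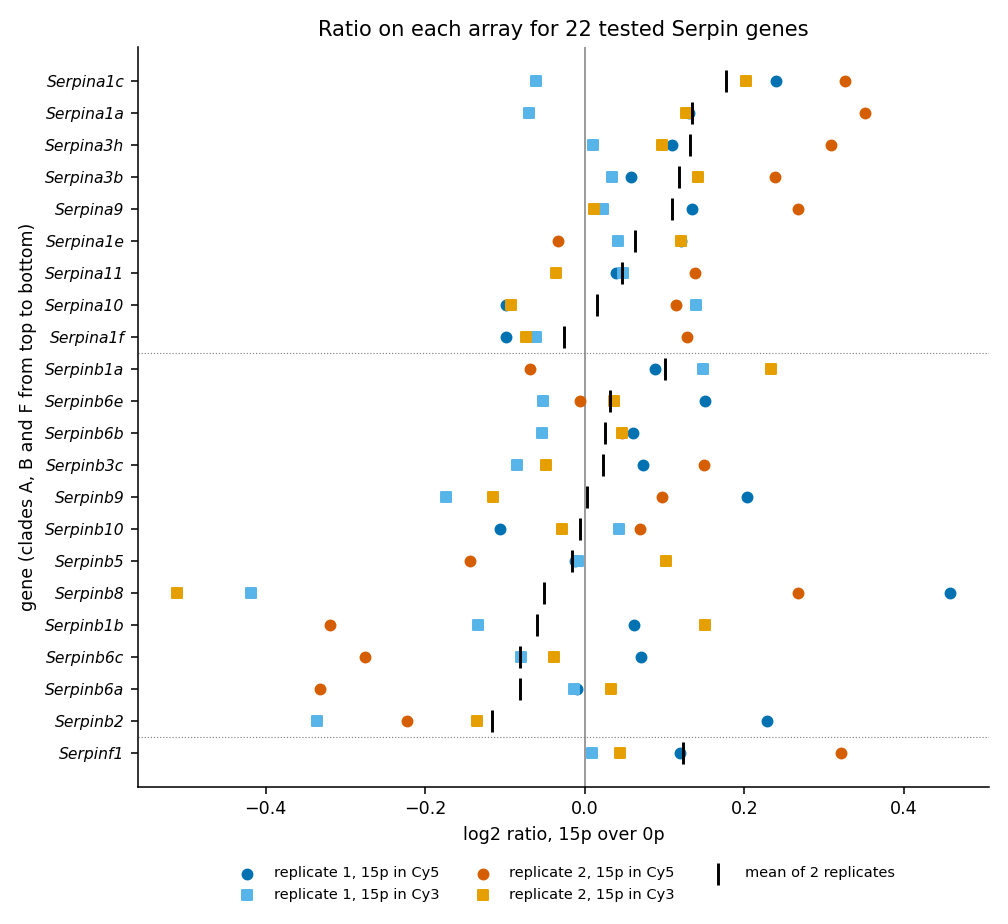
Log2 ratio of 15p over 0p (horizontal axis) on each of the 4 arrays for 22 tested Serpin genes (vertical axis, by clade); circles are 15p-Cy5 arrays, squares 15p-Cy3 arrays, and black bars the mean of 2 replicates. The 15p-Cy5 array of replicate 2 (dark orange circles) often lies farthest from 0, and Serpinb8 splits by dye, from -0.51 to 0.46.

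The 15 Serpin genes seen on some arrays only included inhibitors with known roles in skin and in coagulation. Serpinh1, the collagen chaperone HSP47, had mean spot signals of 54.5, 57.0, 55.4 and 91.2 in 15p RNA and 54.4, 55.6, 81.2 and 134.5 in 0p RNA. These signals are uncorrected, and the RNAs of an array are in different dyes. On the 15p-Cy5 array of replicate 2 the median of negative control spots was 49.0 in Cy5 and 75.2 in Cy3. The normalised log2 ratios of Serpinh1 were 0.0059, -0.052, 0.014 and -0.31, and they were not tested. Serpinh1 was well above background in both RNAs on the 15p-Cy3 array of replicate 2 and on no other array. Serpine2, protease nexin 1, which inhibits thrombin and urokinase, followed the same pattern, with 85.2 in 15p RNA and 80.1 in 0p RNA on that array. Serpini1, neuroserpin, was seen there in 0p RNA only, at 88.1, against 81.7 in 15p RNA. The median of negative control spots on that array was 50.7 in Cy5, which carried 0p RNA, and 62.9 in Cy3. Serpinc1, antithrombin, was well above background on 2 arrays in 15p RNA and on 3 in 0p RNA. Serpind1, heparin cofactor II, was seen on the 15p-Cy5 array of replicate 1 alone, in both RNAs. Clade A contributed Serpina1d, Serpina3a, Serpina3f, Serpina3g and Serpina6, the last a carrier of glucocorticoids, and clade B contributed Serpinb1c, Serpinb3b, Serpinb3d, Serpinb9c and Serpinb9e.

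The 21 genes not well above background on any array have only an upper bound from these arrays. They comprised clade B genes of stratified epithelium, namely Serpinb7, Serpinb12, Serpinb13 and Serpinb3a, together with Serpinb11, Serpinb9b, Serpinb9d, Serpinb9f and Serpinb9g. Serpinb12, an inhibitor of trypsin-like proteases, had mean signals between 46.6 and 74.7 in 15p RNA over its 2 probes. Serpinb3a had 49.6 to 74.3. Plasma inhibitors in this class were Serping1, the C1 inhibitor of complement, Serpinf2, which inhibits plasmin, and Serpina5, the protein C inhibitor. The class also held Serpina3n, an antichymotrypsin-like inhibitor of granzyme B, with 49.7 to 66.2 in 15p RNA, and Serpina12 (vaspin), Serpina7 (a thyroxine carrier), Serpina3c, Serpina3k, Serpina3m, Serpina4-ps1, Serpine3 and Serpini2.

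The accession of 2 probes under other gene names gave a Serpin symbol in RefSeq, so they fell outside the rule for members. The probe named Gm11390, now Serpinb6d, was tested and had log2 ratios of 0.15, -0.034, 0.46 and -0.19, with a mean of 0.096 ± 0.053 (SD, n = 2; limma adjusted p = 0.759). The probe named Gm4931, now Serpina3j, did not meet the filter.

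The proteases that serpins control, and the receptors that clear them, were likewise without a call. Of 40 genes listed for plasminogen activation and coagulation, 22 were tested and 0 passed, with a median log2 ratio of 0.018. At an unadjusted p under 0.05 there were 2 of them, or 9.09% against 6.30% of all genes, namely Sdc4, a heparan sulphate proteoglycan, at 0.16 ± 0.19 (SD, n = 2), and F2rl1, the protease-activated receptor 2, at 0.13 ± 0.10. Plaur, the urokinase receptor, had 0.088 ± 0.017, while the targets of Serpinb2, Plau and Plat, had 0.037 ± 0.028 and 0.044 ± 0.048. None of these differed from 0 beyond the adjusted threshold (limma, adjusted p of 0.749 to 0.889).

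A list of other target proteases, not all of whose members are known serpin targets, held 54 genes. Of these, 53 were on the array, 29 were tested and 0 passed (median 0.023). At an unadjusted p under 0.05 there were 2, Tmprss11e and Ctsd, or 6.90% against 6.30% of all genes. The farthest from 0 was Tmprss11e, a membrane serine protease that Serpina5 is known to inhibit, at -0.20 ± 0.084 (SD, n = 2; limma adjusted p = 0.749). Ctsd, the aspartic protease cathepsin D, had 0.15 ± 0.15, and Ctsl, the cysteine protease cathepsin L, had -0.14 ± 0.16. The matriptase gene St14 had 0.11 ± 0.015 and Prss8, which encodes prostasin, 0.031 ± 0.025.

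Protease inhibitors outside the family also gave no call. Of 38 listed, 37 were on the array, 13 were tested and 0 passed, with 0 at an unadjusted p under 0.05 and a median log2 ratio of 0.024. Spint2 and Spint1, Kunitz inhibitors of matriptase and hepsin, had 0.13 ± 0.13 and 0.058 ± 0.15 (SD, n = 2), Stfa2, a stefin, -0.082 ± 0.0038, Cast, the calpain inhibitor calpastatin, -0.061 ± 0.037, and Slpi, an inhibitor of leukocyte elastase, 0.020 ± 0.036. Among 20 collagens and collagen-modifying genes that Serpinh1 works with, 15 were tested and 0 passed (median 0.033), with 1 at an unadjusted p under 0.05, or 6.67%. Ppib, a collagen prolyl isomerase, was the farthest from 0 at 0.16 ± 0.090 (SD, n = 2; limma adjusted p = 0.749), followed by Plod3 at 0.12 and Col3a1 at 0.088.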

How the data were processed

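Total RNA was labelled (200 ng) and 825 ng of each cRNA hybridised, per the labels' protocols. The authors deposited mean spot intensity and background intensity of Cy5 and Cy3, processed intensity, log10 ratios of Cy5 over Cy3 and flags, extracted with Agilent Feature Extraction 10.7.3.1 per the file headers. A series value table of log10 ratios, deposited with the same direction, was used as an alternative.

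With R 4.3.3 (limma 3.58.1, the data.table package, version 1.17.8), intensities were corrected with normexp (offset 50), which compresses ratios of dim probes, and normalised by loess, control spots at weight 0. Irregular spots (154 to 286 an array) were left out. No spot was saturated. Spots of a probe were averaged, and symbols came from RefSeq (GRCm38.p6) through accessions, which matched 69 of 75 Serpin probes. Probes well above background on all 4 arrays in either RNA were kept, and the brightest stood for its gene. Ratios were turned to 15p over 0p by the labelled dyes, averaged over each dye-swapped pair and tested against 0 (two-sided). The scripts were tested on simulated data. Coordinates are those of the files (mm9); no annotation of that build was used here.

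Members and lists were chosen with earlier results of these data known. Values on every array are given for Serpin genes with an unadjusted p under 0.05, the 10 largest ratios and a list of skin and coagulation members; of the other lists, called genes or the 3 largest ratios, and 9 set genes. Serpinb3c is described beyond this rule for its repeat spots. The titles pair the arrays as dye swaps of a replicate. Array deviations from the mean of both arrays with the same dye layout correlated at -0.26 across genes within a replicate number. Each replicate has a slide of its own (2 slides), and these cannot be told apart. Of the tested Serpin genes, 1 is counted but not reported here.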

Additional observations from a re-analysis of the deposited data

Results flagged for a closer look

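In 3 Serpin genes every array with 15p in Cy5 gave a positive ratio and every array with 15p in Cy3 a negative one. This split was seen for 18.1% of all genes tested. The mean log2 ratio with 15p in Cy5 exceeded that with 15p in Cy3 by 0.83 for Serpinb8, by 0.29 for Serpinb9 and by 0.18 for Serpinb3c. Over all genes the median size of this difference was 0.15. The difference was not tested.

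Signal also appeared in Serpin genes that were not tested: 15 of them had a probe well above background on at least 1 array. The share of all genes in this class was not counted. For 7 of the 15 Serpin genes the only such array was the 15p-Cy3 array of replicate 2, which also had the highest share of spots well above background.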

How the results depend on the processing

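Across 18 alternatives the count of called Serpin genes was 0 wherever a test could be made, except without the 15p-Cy5 array of replicate 1. That fit called 7 Serpin genes, 5 genes of plasminogen activation and coagulation, 7 other target proteases, 2 other inhibitors and 3120 of all genes. Called genes among all tested numbered 88 without the 15p-Cy5 array of replicate 2, 1 without its 15p-Cy3 array, and 1 without the filter on dim probes. With the replicate block beside a dye term, 0 Serpin genes and 60 of all genes were called. This block is a fixed term, because a random block could not be estimated from 4 arrays, and its error is the contrast that crossed pairing leaves. Crossed pairing, chosen after seeing the data, likewise called 0 and 60. The block changed no other call. The median Serpin ratio was 0.043 with median centring and 0.0015 without the filter, which brings in all 59 genes, 7 of them at an unadjusted p under 0.05, as were 2231 of 31883 genes in all. Leaving out a replicate gave medians of 0.020 and 0.044, with no test. Of the 23 genes, 11 kept their sign in every alternative that gave a value per gene (17 at most). The cause of these shifts was not tested. Signal over background and the number of arrays limit the precision.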
